A study of Mus musculus with 12 samples.

Results

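The circadian clock genes examined here were 10 genes chosen by name: Clock and Npas2, Per1, Per2 and Per3, Cry1 and Cry2, Nr1d1 and Nr1d2, and Dbp. They were followed in sternal cartilage of 6 TIMPless mice and 6 WT mice, all 4 wk old and of C57BL/6 background, each on its own Affymetrix Mouse Gene ST 2.0 array. TIMPless mice, called QT in the study, lack all 4 tissue inhibitors of metalloproteases in the whole body. Their Timp1 carries stop codons in exon 3, Timp2 lacks exon 1, Timp3 lacks sequence of exons 2 and 3, and Timp4 lacks exons 1 to 3. WT mice carried none of these alleles. The cartilage was dissected by hand from frozen sternums without the xiphoid process, so RNA of neighbouring tissue can be present. A gene was taken at the brightest probe set that names it alone. By this rule 9 of the 10 clock genes were measured, each by 1 probe set, out of 22180 genes and 41345 probe sets. Per2 was not measured, because its probe set also names another gene. Neither the time of day at which the mice were killed nor their sex is given in the labels or methods.

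The mammalian clock is a loop of transcription and repression that nearly every cell runs, chondrocytes included. CLOCK, or its relative NPAS2, pairs with BMAL1, the product of Arntl, and activates genes that carry an E-box. Among these are the Per and Cry genes, whose proteins repress that pair, the Nr1d genes, whose proteins repress Arntl, Npas2 and Clock, and Dbp, which activates genes with a D-box. Arntl and Npas2 therefore peak at an opposite phase to Dbp and the Nr1d genes, and a tissue taken near the peak of 1 arm shows the other arm low.

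All 4 Timp genes were lower in TIMPless cartilage, with log2 changes between -1.66 for Timp4 and -0.87 for Timp1 (limma, adjusted p = 0.0276 for Timp1), and Timp1 lost the call (adjusted p = 0.114) without WT replicates 5 and 6. It also lost it without TIMPless replicate 4 or any 1 of WT replicates 2 to 6 (adjusted p of 0.0504 to 0.0624). With the muscle mean as a covariate Timp1, Timp3 and Timp4 were not called (adjusted p = 0.4825, 0.0630 and 0.239). Nor were they with the adipocyte mean (adjusted p = 0.3907, 0.245 and 0.461), where Timp4 had a log2 change of -1.09. Timp2 stayed called with either mean (adjusted p = 0.0026 and 0.0103). Where the probes lie relative to the altered exons was not examined. WT replicates 5 and 6 had Xist values of 5.34 and 5.17, against 11.91 to 12.22 in the other 10 mice, and values of Eif2s3y, a gene of the Y chromosome, of 9.20 and 9.06, against 3.50 to 3.99. They look male and the other mice female. Markers of chondrocytes were bright in both genotypes, with list means per mouse of 11.36 to 11.75 in TIMPless and 11.62 to 11.95 in WT cartilage on the log2 scale. Markers of skeletal muscle averaged 8.11 to 9.09 in TIMPless and 9.10 to 10.53 in WT mice, with 8 of 16 called lower. Markers of adipocytes averaged 7.57 to 8.13 in TIMPless and 8.37 to 9.44 in WT mice, with 7 of 8 called lower. Markers of osteoblasts averaged 9.64 to 9.93 in TIMPless and 8.76 to 9.61 in WT mice, with 2 of 7 called higher. None of the muscle, adipocyte and osteoblast means overlapped between the genotypes. Over all probe sets 1.01% were called lower and 0.595% higher, and 3.42% did not overlap. Markers of neutrophils averaged 8.51 to 11.22 in TIMPless and 8.58 to 10.38 in WT mice, and all 7 had the higher mean in TIMPless mice with 0 called. In such bulk tissue, fewer cells of a type and less RNA per cell cannot be told apart.

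Promoters were read to show which clock elements stand near the starts of the genes. The 250 bases before the starts came from a RefSeq promoter table (GRCm38.p6), in which 12 entries matched 9 of the 10 genes. Per2 was not matched. Both strands were searched for the E-box CACGTG, the E-prime box CACGTT, the D-boxes TTATGTAA and TTACGTAA and the ROR elements TAGGTCA and TGGGTCA. The E-box stood in Cry1 and Per1, against 6.02% of 32851 promoters, and the E-prime box in Cry1, Cry2 and Nr1d1, against 3.85%. The D-box stood in Per3, against 0.931%, and the ROR element in 0 of the 9 genes, against 5.38%. These are matches of letters, and binding was not measured. The stretches that hold the matches are shown 5′ to 3′ on the strand of each gene, with the matches in capitals. An E-prime box read from the other strand appears as AACGTG.
Cry1, chr10:85185084-85185158, minus strand: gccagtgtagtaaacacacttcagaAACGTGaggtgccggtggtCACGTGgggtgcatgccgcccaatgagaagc
Cry2, chr2:92434205-92434260, minus strand: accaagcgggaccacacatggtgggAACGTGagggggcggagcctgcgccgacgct
Nr1d1, chr11:98775378-98775430, minus strand: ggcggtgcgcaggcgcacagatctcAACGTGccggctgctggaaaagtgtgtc
Per1, chr11:69098771-69098800, plus strand: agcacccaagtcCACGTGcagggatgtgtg
Per3, chr4:151044791-151044895, minus strand: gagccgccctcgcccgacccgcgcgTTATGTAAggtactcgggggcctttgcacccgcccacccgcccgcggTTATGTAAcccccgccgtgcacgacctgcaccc
Cry1 held an E-prime box 73 bases and an E-box 54 bases before its start. The match lay 160 bases before the start in Cry2 and 22 bases before it in Nr1d1. Per1 held its E-box 160 bases before a start that lies within the span of the gene. Per3 was the 1 clock gene with a pair of D-boxes, 197 and 150 bases before its start.

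Of the 9 clock genes measured, 1 differed between the genotypes. Cry2, 1 of the 2 cryptochrome repressors, was lower in TIMPless cartilage. To be called, a gene had to differ 1.5-fold or more with an adjusted p below 0.05, which 1.61% of all probe sets did, 1.01% as lower and 0.595% as higher. All probe sets include dim ones, whereas the 9 clock genes were at or above the array median in all 12 arrays. In a fit limited to probe sets at or above the median level, 652 of 20676 were called, 411 as lower and 241 as higher. Without the fold limit Cry2 was again the 1 clock gene that passed, against 3.5% of all probe sets (2.26% lower, 1.25% higher). The other 8 clock genes did not pass, and 5 of the 9 had the higher mean in TIMPless and 4 in WT cartilage. Unadjusted p-values under 0.05 were found for 3 of the 9, against 17% of all probe sets. The median log2 change of the 9 was 0.10, against 0.00 over all probe sets.

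Cry2 gave log2 values of 7.57, 7.79, 7.90, 7.59, 7.88 and 7.34 in TIMPless replicates 1 to 6, against 8.56, 8.09, 8.46, 8.38, 8.14 and 8.05 in WT replicates 1 to 6. Every TIMPless mouse lay below every WT mouse, which was so for 2.04% of all probe sets, and 3.42% were without overlap in either direction. Cry2 averaged 7.68 ± 0.22 in TIMPless and 8.28 ± 0.21 in WT cartilage (SD, n = 6 mice each). Its log2 change was -0.60 ± 0.12 (SE), a 1.52-fold lower level (limma, adjusted p = 0.0157). In the exact permutation test, 2-sided, p was 0.00216, the smallest that 6 against 6 mice can give. The fold lay near the threshold, so leaving out TIMPless replicate 1, 4 or 6 or WT replicate 1, 3 or 4 took it to log2 changes of -0.58 to -0.53 and lost the call, with adjusted p-values of 0.0313 to 0.0407. Without WT replicates 5 and 6 the change was -0.69 (adjusted p = 0.0213). Muscle and adipocyte markers moved with genotype in the same direction. With the muscle mean as a covariate the change was -0.62 (adjusted p = 0.386), and with the adipocyte mean it was -0.47 (adjusted p = 0.552). Genotype shared 64.5% of the variance of the muscle mean and 71.3% of that of the adipocyte mean, so a tissue difference and a genotype difference in Cry2 cannot be told apart in such a fit.

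Cry1, the other cryptochrome, did not separate the genotypes. Its values were 6.94, 6.78, 7.05, 7.0, 6.99 and 6.88 in TIMPless mice, against 7.10, 7.35, 7.08, 6.86, 6.61 and 7.09 in WT mice. The TIMPless values lay inside the range of the WT values. The log2 change was -0.07 with a 95% interval of -0.31 to 0.16 (limma, adjusted p = 0.766).

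**Figure D1:**
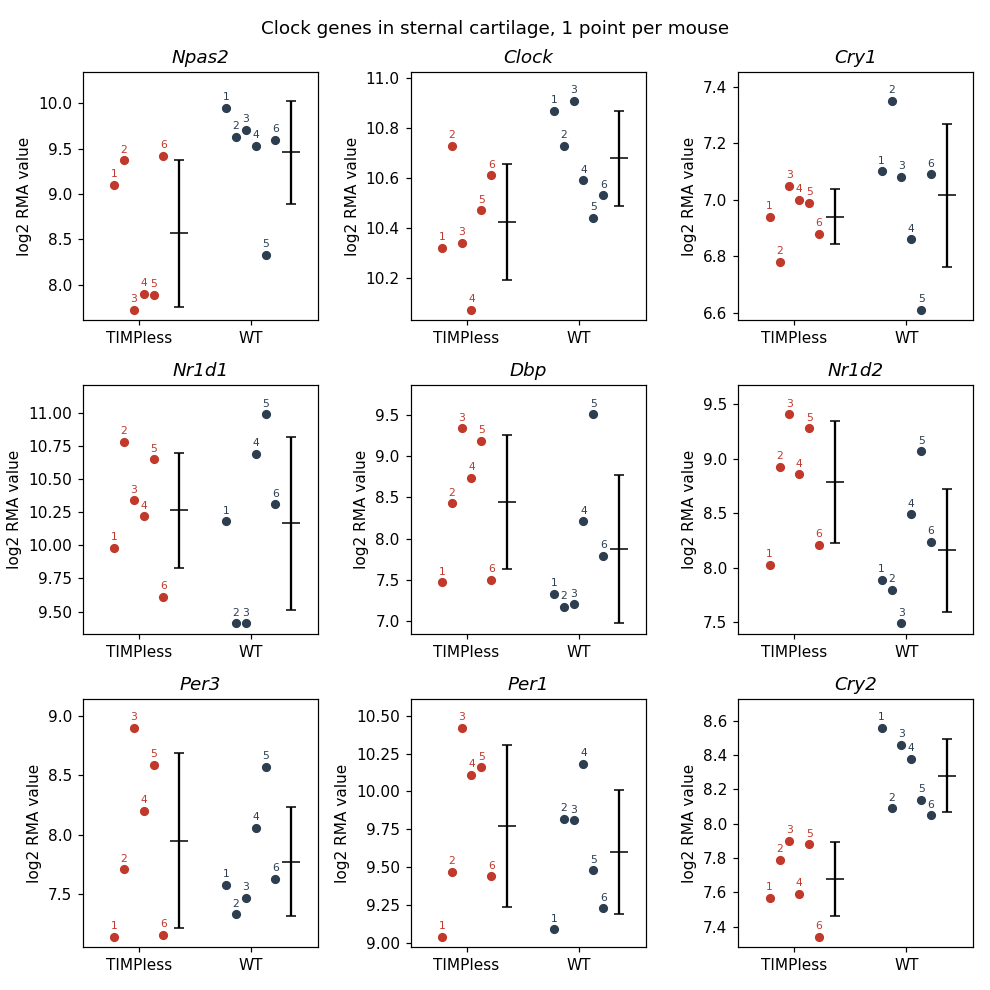
Log2 RMA values of the 9 measured clock genes, 1 point per mouse, with TIMPless on the left and WT on the right of each panel. Small digits are replicate numbers, and bars give the mean and SD of 6 mice, with a separate vertical scale for each gene. Cry2 is the 1 panel without overlap, and TIMPless replicates 3, 4 and 5 and WT replicate 5 have the 4 lowest Npas2 values and the 4 highest Dbp values.

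The activators Npas2 and Clock had lower means in TIMPless cartilage, but neither passed the test. Npas2 gave 9.10, 9.37, 7.72, 7.90, 7.89 and 9.42 in TIMPless replicates 1 to 6, against 9.95, 9.63, 9.71, 9.53, 8.33 and 9.60 in WT replicates 1 to 6. TIMPless replicates 3, 4 and 5 and WT replicate 5 lay at 8.33 or below, and the other 8 mice at 9.10 or above. Npas2 averaged 8.57 ± 0.81 in TIMPless and 9.46 ± 0.57 in WT mice (SD, n = 6 each). Its log2 change was -0.89 ± 0.36 (SE), with an adjusted p of 0.220 by limma and an exact permutation p of 0.0584, 2-sided.

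Clock gave 10.32, 10.73, 10.34, 10.07, 10.47 and 10.61 in TIMPless mice, against 10.87, 10.73, 10.91, 10.59, 10.44 and 10.53 in WT mice. The groups overlapped, and the spread was narrower than that of Npas2. The log2 change of Clock was -0.25 ± 0.12 (SE; limma, adjusted p = 0.294). Arntl, whose product is the partner of both activators, followed Npas2 mouse by mouse. Its values were 8.63, 8.75, 7.04, 7.28, 7.33 and 8.95 in TIMPless mice, against 9.61, 9.20, 9.34, 9.01, 8.22 and 9.05 in WT mice. The same 4 mice were again the lowest. Its log2 change of -1.07 did not pass (limma, adjusted p = 0.132; exact permutation p = 0.0325, 2-sided).

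Dbp, Nr1d2 and Per3 showed the opposite order. Dbp, a PAR bZIP activator, gave 7.47, 8.43, 9.34, 8.74, 9.19 and 7.50 in TIMPless mice, against 7.33, 7.17, 7.20, 8.21, 9.51 and 7.79 in WT mice. TIMPless replicates 3, 4 and 5 and WT replicate 5 were here the 4 highest. Dbp averaged 8.45 ± 0.81 in TIMPless and 7.87 ± 0.90 in WT cartilage (SD, n = 6 each), and its log2 change of 0.58 had a 95% interval of -0.37 to 1.52 (limma, adjusted p = 0.534).

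Nr1d2, which encodes the repressor REV-ERB beta, gave 8.03, 8.93, 9.41, 8.86, 9.28 and 8.21 in TIMPless mice, against 7.89, 7.80, 7.49, 8.49, 9.07 and 8.24 in WT mice. WT replicate 5 exceeded 4 of the 6 TIMPless mice, and TIMPless replicate 2 (8.93) lay above TIMPless replicate 4 (8.86). The log2 change was 0.62 ± 0.29 (SE; limma, adjusted p = 0.295), with a 95% interval of -0.0018 to 1.25. Nr1d1, which encodes REV-ERB alpha, gave 9.98, 10.78, 10.34, 10.22, 10.65 and 9.61 in TIMPless mice, against 10.18, 9.41, 9.41, 10.69, 10.99 and 10.31 in WT mice. Its 2 lowest and its highest mouse were WT mice, and the log2 change was 0.10 ± 0.28 (SE; limma, adjusted p = 0.895).

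Per3, the period gene with the pair of D-boxes shown above, gave 7.14, 7.71, 8.90, 8.20, 8.59 and 7.16 in TIMPless mice, against 7.58, 7.33, 7.47, 8.06, 8.57 and 7.63 in WT mice. The 4 highest were the 4 mice that were highest in Dbp. Its log2 change was 0.18 ± 0.32 (SE; limma, adjusted p = 0.819). Per1, a period gene that light and glucocorticoid hormone can also induce, gave 9.04, 9.47, 10.42, 10.11, 10.16 and 9.44 in TIMPless mice, against 9.09, 9.82, 9.81, 10.18, 9.48 and 9.23 in WT mice. WT replicate 5, the highest mouse in Dbp, lay below the Per1 mean of either genotype (9.77 in TIMPless and 9.60 in WT). The log2 change of Per1 was 0.17 ± 0.25 (SE; limma, adjusted p = 0.765).

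**Figure D2:**
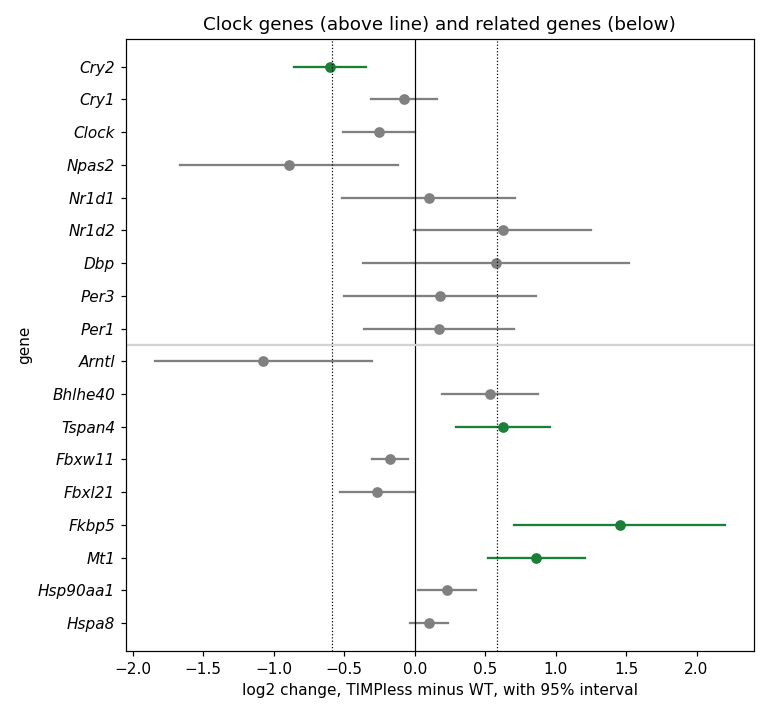
Log2 change (TIMPless minus WT) with its 95% interval from limma for the 9 clock genes above the grey line and 9 related genes below it. Green marks genes called, grey marks genes not called, and dotted lines mark a 1.5-fold change. Cry2 is the 1 clock gene in green, and the intervals of Npas2 and Dbp are wider than that of Cry2.

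Most clock genes varied more between mice of 1 genotype than the usual probe set. The within-genotype SD of Dbp was 0.856, above that of 99.1% of all probe sets. Npas2 stood at 98.5%, Per3 at 97.4%, Nr1d2 at 96.4%, Nr1d1 at 96.1% and Per1 at 93.7%, so that 6 of the 9 were in the top 10%. Cry2 at 59.8%, Clock at 58.9% and Cry1 at 50.7% lay near the middle. The median SD was 0.552 over the clock genes and 0.189 over all probe sets. Between the highest and the lowest of the 12 mice, Dbp differed 5.06-fold, Npas2 4.69-fold, Nr1d2 3.78-fold and Cry1 1.67-fold.

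The 2 arms of the loop were set against each other in each mouse. For each mouse, the mean of Npas2 and Clock was subtracted from the mean of Dbp, Nr1d1, Nr1d2 and Per3, with every gene centred on the 12 mice. This difference was -0.45, 0.02, 1.57, 1.12, 1.35 and -0.79 in TIMPless replicates 1 to 6, against -1.06, -1.15, -1.31, -0.09, 1.25 and -0.47 in WT replicates 1 to 6. It was above 0 in 4 TIMPless mice and in 1 WT mouse, with medians of 0.57 in TIMPless and -0.76 in WT. Npas2 minus Dbp was 1.63, 0.94, -1.62, -0.84, -1.30 and 1.92 in TIMPless mice, against 2.62, 2.46, 2.51, 1.32, -1.18 and 1.81 in WT mice. Probe sets differ in brightness, so only the order of the mice can be read from this, and the 4 lowest were again TIMPless replicates 3, 4 and 5 and WT replicate 5. Both genotypes thus held mice at either end, but the 1 WT mouse among these 4, replicate 5, looks male, and no TIMPless mouse does. Without WT replicates 5 and 6 the log2 changes were -1.14 for Npas2, 0.97 for Dbp and 0.87 for Nr1d2. None of these passed (limma, adjusted p of 0.144 to 0.250). Since the time of death of each mouse is not given, a difference in sampling time and a difference in the clock itself cannot be told apart.

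**Figure D3:**
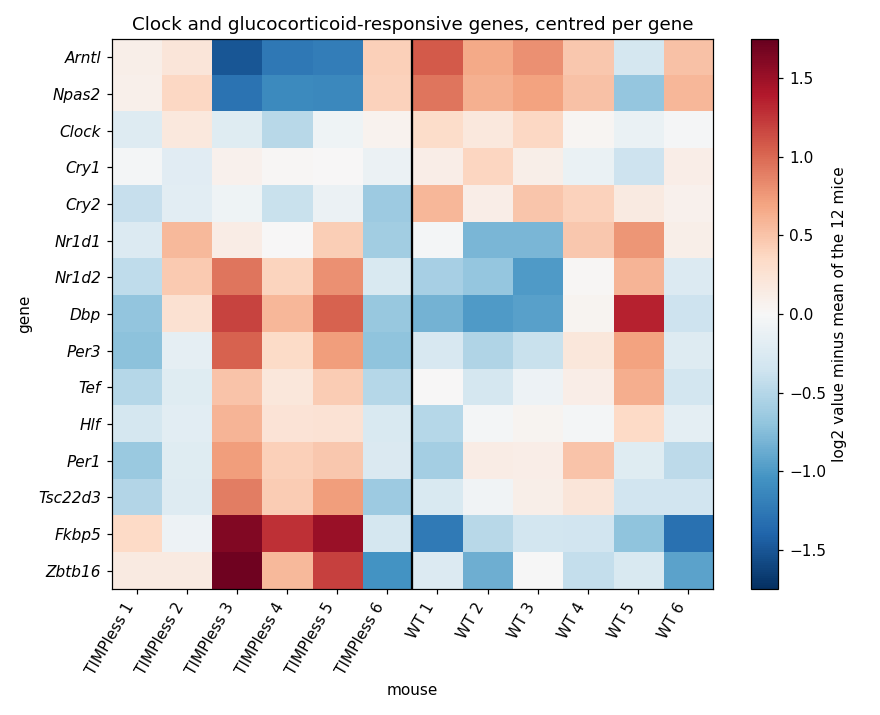
Log2 values of clock genes and glucocorticoid-responsive genes, each minus its mean over the 12 mice (colour scale in log2 units), with TIMPless mice left of the black line and WT mice right of it. TIMPless replicates 3, 4 and 5 and WT replicate 5 are blue in Arntl and Npas2 and red in Dbp, Nr1d2 and Per3. TIMPless replicate 2 lies above the mean of the 12 mice in Arntl, Npas2, Dbp and Nr1d2 alike. WT replicate 5 is not red in Per1, Tsc22d3 or Fkbp5.

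The 4 genes Dbp, Nr1d1, Nr1d2 and Per3 correlated positively with each other within each genotype, with a Pearson r of 0.586 (Nr1d1 and Per3) to 0.985 over the 6 pairs in TIMPless mice and 0.87 to 0.981 in WT mice. Dbp and Nr1d2 had a Pearson r of 0.983 over the 6 TIMPless mice and 0.963 over the 6 WT mice. For Dbp and Per3 the values were 0.985 in TIMPless and 0.981 in WT mice, and for Npas2 and Arntl 0.997 in TIMPless and 0.972 in WT mice. Npas2 and Clock followed each other less closely, with 0.66 in TIMPless and 0.744 in WT mice. Npas2 and Dbp gave an r of -0.852 in TIMPless and -0.931 in WT mice. Among WT mice, replicate 5 had the lowest Npas2 value (8.33) and the highest Dbp value (9.51). How far the WT values of r rest on this mouse was not tested. Over the 8 pairs of Npas2 or Clock with Dbp, Nr1d1, Nr1d2 or Per3, r ran from -0.907 to 0.184 in TIMPless mice and from -0.931 to -0.637 in WT mice. In TIMPless mice the 4 pairs with Clock lay between -0.319 and 0.184, so Clock showed little opposition there. These are descriptions of mice that share a laboratory and a tissue, and the points of each array share its normalization. The Npas2 values left a gap between 8.33 and 9.10. The 8 mice above it were pooled over the genotypes, with genotype means kept. There the r of Npas2 with Arntl was 0.971 and that of Dbp with Nr1d2 was 0.945. That of Npas2 with Dbp was -0.343, against -0.864 over all 12 mice pooled alike. The cut was made on Npas2 itself, which narrows its range and can weaken its r.

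Cry2 and Cry1 did not keep 1 relation to these genes. Cry2 against Dbp gave an r of 0.847 in TIMPless and -0.328 in WT mice. Cry1 against Dbp gave 0.538 in TIMPless and -0.924 in WT mice. With 6 mice per genotype the difference between these values was not tested. With the Dbp value of each mouse as a covariate, Cry2 kept a log2 change of -0.64 (limma, adjusted p = 0.0258), and with the Arntl value it was -0.67 (adjusted p = 0.0772). Both covariates were chosen after the values were seen. Genotype shared 12% of the variance of Dbp and 41.6% of that of Arntl.

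Over 12732 genes at or above the median level, the genes most like Dbp were sought with genotype means removed (n = 12 mice). They were Nr1d2 (r = 0.971), Per3 (0.946), Pmvk (0.941) and Tef (0.912), and 0.141% of genes exceeded 0.8. Over the 8 mice above the gap in Npas2, with genotype means kept, the r of Dbp was 0.681 with Per3 and 0.249 with Tef. Over all 12 mice pooled alike these were 0.930 and 0.847. The r of Dbp pooled in this way was 0.959 with Nr1d2 but 0.427 with Pmvk. Tef, like Dbp, encodes a PAR bZIP factor, and Pmvk an enzyme of the mevalonate pathway. The genes least like Dbp were Rnf144b (-0.939), Cd80 (-0.887), Npas2 (-0.865) and Snx18 (-0.853). With genotype means kept, their r over all 12 mice was -0.875, -0.551, -0.864 and -0.863. Most like Npas2 were Arntl (0.983), Ankrd50 (0.956), Dio2, a thyroid hormone deiodinase (0.943), and Enpep, an aminopeptidase (0.928). Least like Npas2 were Hlf (-0.898), Smim31 (-0.898), Per3 (-0.894) and Tef (-0.891). With genotype means kept, their r over all 12 mice was -0.829, -0.434, -0.813 and -0.717. Over the 8 mice above the gap, with genotype means kept, the r of Npas2 with Per3 was 0.330, against -0.813 over all 12 mice pooled alike. The ranking had genotype means removed, and the 8 mice were chosen by Npas2 itself. How far the ranking rested on the 4 mice below the gap was therefore not tested.

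Per1 followed Per3 in TIMPless mice (r = 0.955) and not in WT mice (r = 0.065), a difference that was not tested. Against Dbp, Per1 gave an r of 0.925 in TIMPless and 0.006 in WT mice. Against Tsc22d3, a gene that the glucocorticoid receptor induces, it gave 0.951 in TIMPless and 0.897 in WT mice, and 0.812 over the 8 mice above the gap in Npas2. Against Fkbp5, another such gene, it gave 0.857 in TIMPless and 0.927 in WT mice. Over those 8 mice it was 0.177. For both genes the 8 mice were pooled over the genotypes with genotype means kept. Fkbp5 differed between the genotypes, so its pooled r cannot be set against the r within a genotype. Tsc22d3 read 7.69, 7.99, 9.10, 8.65, 8.94 and 7.58 in TIMPless mice, against 7.94, 8.15, 8.31, 8.42, 7.87 and 7.87 in WT mice. WT replicate 5, the highest mouse in Dbp, shared the lowest WT value of Tsc22d3 with WT replicate 6, whereas TIMPless replicates 3, 4 and 5 were high in Dbp, Per1 and Tsc22d3 alike.

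**Figure D4:**
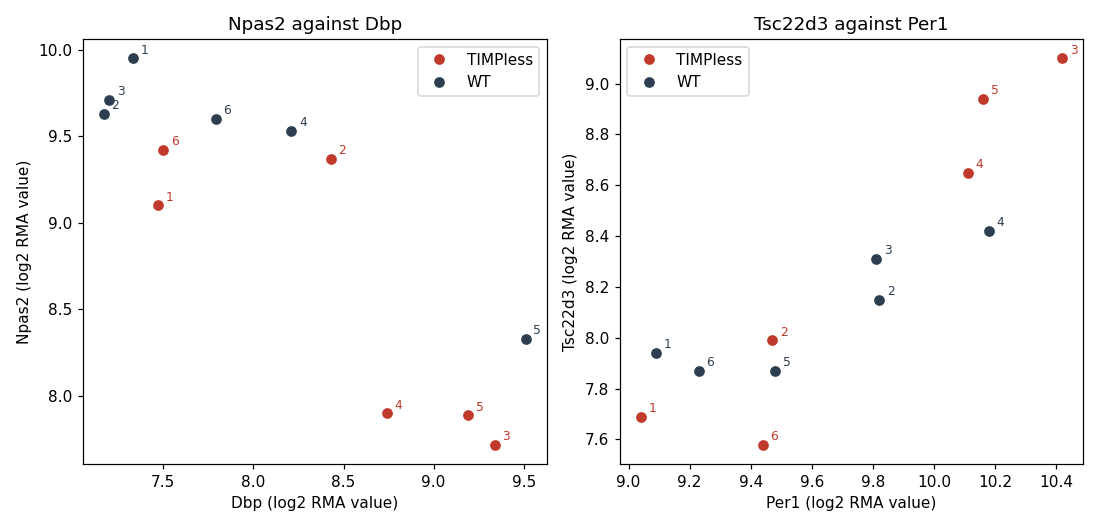
Npas2 against Dbp on the left and Tsc22d3 against Per1 on the right, in log2 RMA values, 1 point per mouse with its replicate number, TIMPless in red and WT in dark blue. WT replicate 5 lies near TIMPless replicates 3, 4 and 5 on the left and among the other WT mice on the right.

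The remaining genes of the clock and its outputs gave few calls. Among 7 other genes of the loop 0 were called, with a median log2 change of -0.03. The nearest were Arntl, above, and Bhlhe40, an E-box repressor, which gave 9.19, 10.12, 9.64, 9.38, 9.72 and 9.76 in TIMPless mice, against 8.76, 9.0, 9.02, 8.97, 9.41 and 9.43 in WT mice. Only TIMPless replicates 1 and 4 lay within the WT range. The log2 change of Bhlhe40 was 0.54 (limma, adjusted p = 0.0873), and it passed at 0.70 (adjusted p = 0.0465) without WT replicates 5 and 6, and at 0.63 (adjusted p = 0.0489) without TIMPless replicate 1. Among 5 genes for kinases and ubiquitin ligases that act on PER and CRY proteins 0 were called. The nearest, Fbxw11 (log2 change -0.17, adjusted p = 0.143) and Fbxl21 (-0.26, adjusted p = 0.298), encode parts of ubiquitin ligases.

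Of 8 clock output genes 1 was called higher, with a median log2 change of 0.17. This was Tspan4, a tetraspanin, with 8.49, 9.15, 9.13, 8.84, 9.11 and 8.72 in TIMPless mice, against 7.77, 8.27, 8.13, 8.36, 8.69 and 8.46 in WT mice. TIMPless replicate 1 lay below WT replicate 5, and the other TIMPless mice above all WT mice. The log2 change of Tspan4 was 0.63 ± 0.16 (SE; limma, adjusted p = 0.0454). It was no longer called without any 1 of TIMPless replicates 2 to 6 or WT replicates 1, 2, 3, 4 and 6, with adjusted p-values of 0.0609 to 0.0981. Tef and Hlf, partners of Dbp in its family, had log2 changes of -0.02 and 0.11 and did not pass.

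Of 10 genes that glucocorticoids induce in many tissues, 2 were called higher and 0 lower. Called higher were 0.595% of all probe sets, and 241 of 20676 in the fit limited to those at or above the median level. All 10 genes had the higher mean in TIMPless cartilage, as had 20694 of 41345 probe sets, and their median log2 change was 0.36. Some changes were small, such as those of Klf9 (0.10; limma, adjusted p = 0.740) and Klf15 (0.12, adjusted p = 0.878). Fkbp5, a cochaperone of the glucocorticoid receptor, gave 7.97, 7.53, 9.24, 8.90, 9.13 and 7.32 in TIMPless mice, against 6.39, 7.14, 7.30, 7.29, 6.92 and 6.32 in WT mice. Every TIMPless mouse exceeded every WT mouse, which 1.38% of all probe sets did, and TIMPless replicates 3, 4 and 5 were the highest. Its log2 change was 1.46 ± 0.35 (SE; limma, adjusted p = 0.0373). The call was lost without WT replicates 5 and 6 (1.32, adjusted p = 0.126), with Dbp as a covariate (1.22, adjusted p = 0.0849) and with Arntl (0.62, adjusted p = 0.440). It was also lost without any 1 of TIMPless replicates 1, 3, 4 and 5 or of the 6 WT mice, with adjusted p-values of 0.0520 to 0.0826.

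Mt1, a metallothionein, gave 9.66, 10.14, 10.24, 9.85, 10.08 and 9.63 in TIMPless mice, against 9.45, 9.16, 9.22, 9.27, 8.63 and 8.69 in WT mice. The groups did not overlap, and the values of TIMPless replicates 3, 4 and 5 did not stand apart from those of the other TIMPless mice. The log2 change of Mt1 was 0.86 ± 0.16 (SE; limma, adjusted p = 0.0100), and it stayed called when any 1 mouse was left out (adjusted p of 0.00946 to 0.0253). WT replicates 5 and 6, which look male, had the lowest Mt1 values. Without both, the change of Mt1 fell to 0.66 and was still called (adjusted p = 0.0297). Errfi1, a feedback inhibitor of EGF receptors, passed the adjusted p (0.0377) but not the fold. Zbtb16, a zinc finger factor, gave 8.86, 8.85, 10.40, 9.27, 9.89 and 7.65 in TIMPless mice, against 8.46, 7.84, 8.69, 8.28, 8.43 and 7.76 in WT mice. Its highest values again were those of TIMPless replicates 3, 5 and 4, and its change of 0.91 did not pass (limma, adjusted p = 0.225). With the muscle or the adipocyte mean as a covariate, Tspan4, Fkbp5 and Mt1 were not called (adjusted p of 0.362 to 0.772). With the muscle mean the log2 change was 0.66 for Tspan4, 1.10 for Fkbp5 and 0.59 for Mt1, and with the adipocyte mean it was 0.31, 1.12 and 0.94. The osteoblast list, given above, also had higher means in TIMPless mice, with 5 of its 7 genes higher and 2 lower. Its called genes were Dmp1 (log2 change 1.58) and Mepe (1.57). The neutrophil list means overlapped between the genotypes, with 0 genes called. The part of either list in these results was not tested.

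Body temperature can also set clock genes, and of 8 temperature-responsive genes 0 were called. Hsp90aa1 (log2 change 0.23, adjusted p = 0.240) and Hspa8 (0.10, adjusted p = 0.428) came nearest.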

How the data were processed

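The authors scanned 1 array per mouse and made the deposited log2 values by robust multiarray average (RMA) in Partek 6.6 (version from the submitters' processing notes). RMA gives every array the same distribution of values after background correction, so a shift common to most genes is removed. Array medians were 6.15 to 6.20. Genome build and scan dates were not given in the sources used here. The platform annotation named 23521 of 41345 probe sets for 1 gene. The log2 values were fitted by genotype alone (lmFit and eBayes of limma 3.58.1, R 4.3.3) with Benjamini-Hochberg adjustment over all probe sets. Exact permutation tests were 2-sided over all splits of the 6 and 6 mice. The script was tested on simulated data. Fits were repeated with other normalizations, filters, priors and q values, with a replicate block, covariates for tissue markers, Y-linked genes, Dbp or Arntl (the last 2 added after seeing the data), and each mouse left out. Named genes were the clock genes, the Timp genes, in each related list up to 3 called genes or the 2 nearest, and the 4 genes most and least like Dbp and Npas2. Tsc22d3, Zbtb16, Errfi1, Tef, Hlf, Klf9, Klf15, Dmp1 and Mepe in the lists were named after their values were seen. Members, lists and tests were chosen with earlier results of these data known. The mice are separate animals by the labels, and the precision rests on their number, since arrays hold no read counts.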

Additional observations from a re-analysis of the deposited data

Results flagged for a closer look

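Npas2 in WT replicate 5 was 8.33, far from the other 5 WT mice, which lay between 9.53 and 9.95. No other value stood apart in this way among 44 sets of 6 mice, and chance would place about 5% of sets there. The same mouse had the highest Dbp value of all 12 mice, 9.51.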

How the results depend on the processing

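The count of clock genes called, 1, was 0 with array quality weights (Cry2 -0.56, below the fold) and 0 with the muscle mean, the adipocyte mean or the Arntl value as a covariate. With each mouse left out it was 0 to 1. The count with an adjusted p under 0.05 alone, 1, was 0 with the same 3 covariates and 1 with any mouse left out. The 3 related genes called became 0 with those 3 covariates and 1 with the Dbp covariate, and 1 to 4 with each mouse left out (1 without TIMPless replicate 4 or 5 or WT replicate 1 or 6). Over all probe sets, deviations of same-numbered mice correlated between -0.213 and -0.00836. Such a correlation cannot show whether same-numbered mice shared something that moves only a few genes, and this was not tested. With the replicate block the SE fell from 0.359 to 0.254 for Npas2 and from 0.437 to 0.320 for Dbp. For Clock and Cry1 the SE rose. With the replicate block both clock counts were 0, Cry2 had an adjusted p of 0.0509, and 423 probe sets were called against 665. With the muscle mean 50 probe sets were called, with the adipocyte mean 18, and with Arntl 423. The muscle and adipocyte means differed between the genotypes without overlap.

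Directions turned for members that had not passed. Per1 was -0.23 with the muscle mean, -0.28 with the adipocyte mean and -0.32 with Arntl. Nr1d1 was -0.18 with the adipocyte mean, -0.20 with Dbp and -0.29 with Arntl, and ranged from -0.053 to 0.26 with each mouse left out. Per3 was -0.21 with Dbp and -0.69 with Arntl, and ranged from -0.013 to 0.34. With Arntl, Npas2 was 0.17, Nr1d2 -0.055 and Dbp -0.55. The cause was not tested. Cry2 stayed lower in all alternatives, between -0.70 and -0.47.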
